A study of Rattus norvegicus with 15 samples.

Results

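Fibroblast growth factor (FGF) receptors and the genes that FGF signalling switches on were followed in the molar tooth germs of rat embryos. Of the 9 genes, 3 encode receptors (Fgfr1, Fgfr2 and Fgfr3), 3 encode Sprouty inhibitors (Spry1, Spry2 and Spry4) and 3 are response genes (Etv4, Etv5 and Dusp6). The rule names them by their known role, although earlier results of these data were known when it was made. A row in the expected count table of 14185 genes was found for 8 of the 9. Spry1 was not analysed here because no identifier joined its symbol to a row. The symbols of 5 genes were joined through the gene lists of the study, and the identifiers of Etv4, Etv5 and Dusp6 were given with the list of genes.

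Each library held the RNA of 1 whole molar germ of the DA/HanRj strain, with 5 libraries at E15 (labelled embryonic day E15.5), 5 at E17 (E17.5) and 5 at E18. No treatment was given. The germs were wild type by the methods of the study for E15 and E17 and by the labels for E18. At E15 the germ is a bud, and by E17 it is a cap that holds the primary enamel knot, a signalling centre of the epithelium. The E18 labels name a lower first molar and those of E15 and E17 molar 1. RNAlater is named in the E18 labels alone, but the methods of the study give it for the E15 and E17 germs too. The title codes (OH8, OH6 and OH47) follow the stage without exception. Stage and any difference in preparation that goes with these codes therefore cannot be told apart. E17 replicates 1 and 2 were the left and right tooth of the same embryo, whereas the embryo numbers of all other libraries differed within a stage. Library totals ranged from 10993502 to 27571541 counts. E18 replicate 3 stood apart, with a mean correlation of 0.873 to the other E18 libraries over 12781 genes.

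FGF ligands bind receptor tyrosine kinases and, through Ras and the ERK kinases, raise the transcription of a small set of genes. Etv4 and Etv5 encode ETS transcription factors that carry the signal into the nucleus. Dusp6, a phosphatase that removes the activating phosphates of ERK, and the Sprouty proteins, which restrain signalling below the receptor, act back on the pathway as inhibitors. In the tooth germ, FGFs pass between epithelium and mesenchyme and drive proliferation around the enamel knot. Transcripts of such feedback genes are widely used as a readout of pathway activity, but activity itself was not measured here.

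Promoters are shown for 3 of the genes that passed the test below, 1 with a match to the motifs searched and 2 with none. RefSeq promoters of the GRCr8 assembly, which run from 250 bases before to 50 bases after the transcription start, were found for 7 of the 9 genes in 8 windows. The study names another build (Rnor_6.0) for its alignment of rat reads, and the counts used here carry no coordinates. The windows were therefore matched by symbol alone. Searched on both strands were an ETS core (CCGGAA), a cyclic AMP response element (TGACGTCA) and an AP-1 site (TGACTCA), and no matches overlapped. These motifs were chosen after the counts had been seen. The Spry2 window lies at chr15:89111877-89112176 on the minus strand, the Etv5 window at chr11:92113013-92113312 on the plus strand, and the Dusp6 window at chr7:35979354-35979653 on the plus strand. Each is written in the direction of transcription, and capitals mark the ETS core.
Spry2: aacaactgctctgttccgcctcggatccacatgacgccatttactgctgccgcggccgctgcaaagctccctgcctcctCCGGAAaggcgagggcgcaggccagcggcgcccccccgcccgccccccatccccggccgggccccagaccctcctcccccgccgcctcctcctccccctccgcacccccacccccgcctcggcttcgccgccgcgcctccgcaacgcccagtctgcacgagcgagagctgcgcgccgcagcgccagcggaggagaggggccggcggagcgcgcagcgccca
Etv5: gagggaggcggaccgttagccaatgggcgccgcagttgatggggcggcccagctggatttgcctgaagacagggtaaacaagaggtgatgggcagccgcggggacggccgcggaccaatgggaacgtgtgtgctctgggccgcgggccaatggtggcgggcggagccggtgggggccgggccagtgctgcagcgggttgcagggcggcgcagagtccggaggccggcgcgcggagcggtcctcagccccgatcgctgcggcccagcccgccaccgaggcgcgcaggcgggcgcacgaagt
Dusp6: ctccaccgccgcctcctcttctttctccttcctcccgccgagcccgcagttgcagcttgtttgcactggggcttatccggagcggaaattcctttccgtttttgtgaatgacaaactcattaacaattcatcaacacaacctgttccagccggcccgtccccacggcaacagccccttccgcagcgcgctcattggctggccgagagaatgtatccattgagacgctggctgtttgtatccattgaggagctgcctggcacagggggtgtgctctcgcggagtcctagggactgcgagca
The ETS core began at position -171 from the transcription start of Spry2, and its reverse complement (TTCCGG) at -81 from that of Spry4. None of the 3 motifs was found in the windows of Etv5, Dusp6, Fgfr2, Fgfr3 and Spry1, or in the other Spry2 window of the table. The ETS core was thus in 2 of 8 windows, beside 15% of all 33469 promoters of the same length. The cyclic AMP element was in 1.83% and the AP-1 site in 4.63% of all promoters. A match describes the letters alone, and a window without one says only that these letters are not there.

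The question between stages was how receptors and response genes changed while the bud became a cap and the cap grew. The 5 response and inhibitor genes with a row were all higher at E17 than at E15, and all 5 of the later teeth lay above all 5 of the earlier for each of them, beside 9.23% of all genes tested. Etv4 rose most in this group, by 5.02-fold in mean normalized count, followed by Etv5 (2.04-fold), Dusp6 (1.76-fold), Spry2 (1.38-fold) and Spry4 (1.37-fold). The 3 receptors had higher means at E17 as well, by 1.13-fold to 1.32-fold, but did not pass the test. Before adjustment their edgeR p was 0.0163 (Fgfr1), 0.0134 (Fgfr2) and 0.101 (Fgfr3). Normalized counts are counts divided by DESeq2 size factors of the 15 libraries. The test was edgeR's quasi-likelihood test with Benjamini-Hochberg adjustment over all genes at a threshold of 0.05.

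In E17 against E15, 5 of 8 genes passed, all of them higher. The background was 18.3% of 12627 tested genes called and 11.3% of tested genes called higher. The median log2 fold change was 0.47 over the 8 genes and -0.0087 over all genes tested. In E18 against E15, 5 of 8 passed and were again higher, beside 21.0% of 12661 genes called and 14.2% called higher. In all 5 every E18 tooth lay above every E15 tooth, beside 12.7% of all genes. Here the medians were 0.67 and -0.017. These comparisons share the E15 libraries, and so are not independent of each other. By the labelled days, the step from E17 (E17.5) to E18 was shorter than that from E15 (E15.5) to E17. Calls in these steps therefore cover unequal times. In E18 against E17, 0 of 8 passed in edgeR, beside 2.54% of 12718 genes called and 1.91% called higher. All 8 genes overlapped between these stages, where 4.18% of all genes had every E18 tooth above every E17 tooth. There, 4 of 8 genes (Spry2, Spry4, Etv4 and Dusp6) had an unadjusted p under 0.05, and DESeq2 called 1 of 8 (Etv4), beside 4.76% of the 13956 genes it tested. Without E18 replicate 3, 6 of 8 passed in E18 against E15, Fgfr2 (0.29, edgeR adjusted p = 0.0349) joining the 5, beside 28% of all genes tested in that fit, and 1 of 8 (Etv4) in E18 against E17, beside 5.57%.

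**Figure D1:**
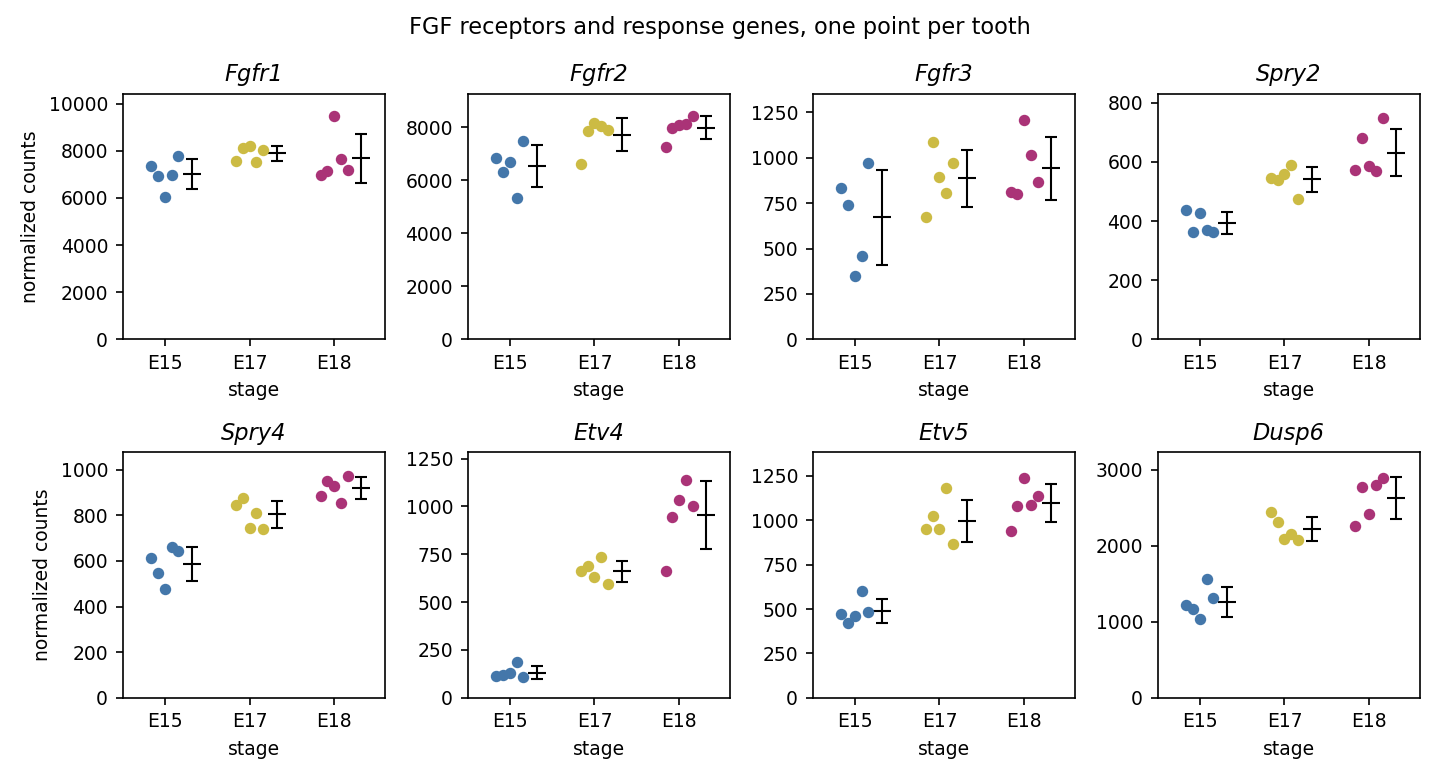
Normalized counts of the 8 genes with a row (y axis, linear from 0, own scale per gene) at E15, E17 and E18 (x axis). Points are single teeth in replicate order, and the black bar is the mean ± SD (n = 5). The E15 points of Spry2, Spry4, Etv4, Etv5 and Dusp6 lie below all points of E17 and E18, whereas the 3 receptors overlap between stages.

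Fgfr1 encodes an FGF receptor that is used in both the epithelium and the mesenchyme of the germ. Its normalized counts were 7343, 6947, 6033, 6961 and 7779 in E15 replicates 1 to 5. At E17 they were 7564, 8123, 8198, 7544 and 8038. At E18 they were 6965, 7149, 9485, 7633 and 7171. E18 replicate 3, the library that stood apart, was the highest of all 15, and the stages overlapped. The means were 7013 ± 645, 7893 ± 315 and 7680 ± 1038 (SD, n = 5). The log2 fold change was 0.18 ± 0.07 (SE) in E17 against E15 (edgeR adjusted p = 0.0741), -0.04 in E18 against E17 (0.836) and 0.14 in E18 against E15 (0.390). Without E18 replicate 3 the values for E18 were -0.13 against E17 and 0.055 against E15, with no call.

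Fgfr2 encodes the receptor whose epithelial splice form binds Fgf10 and Fgf3 and is required for tooth germs to pass the bud stage. Gene counts do not separate its epithelial and mesenchymal splice forms. Its E15 values were 6850, 6311, 6703, 5345 and 7505 normalized counts. At E17 they were 6623, 7864, 8161, 8071 and 7905. At E18 they were 7264, 7976, 8089, 8139 and 8439. E17 replicate 1 lay within the E15 range, while the other 4 teeth of E17 were above it. The means were higher at each later stage (6543 ± 796, 7725 ± 628 and 7981 ± 436), but no comparison passed after adjustment over all genes. Against E15 the unadjusted edgeR p was 0.0134 at E17 and 0.0110 at E18. The log2 fold change was 0.25 ± 0.09 in E17 against E15 (edgeR adjusted p = 0.0647) and 0.30 ± 0.10 in E18 against E15 (0.0518). Both values were close to the threshold, and Fgfr2 passed it in 4 of 17 and 6 of 16 alternative fits.

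Fgfr3 encodes the receptor that restrains growth of cartilage in the skeleton. It was the receptor with the widest spread between teeth. Its normalized counts were 835, 739, 351, 458 and 972 at E15, 673, 1088, 895, 807 and 969 at E17, and 812, 802, 1211, 1015 and 866 at E18. E15 replicates 3 and 4 were the lowest of all 15 libraries, and E17 replicate 1 was the lowest of its stage. The means were 671 ± 260, 886 ± 157 and 941 ± 173. The log2 fold changes were 0.41 ± 0.23 in E17 against E15 (edgeR adjusted p = 0.249) and 0.49 ± 0.25 in E18 against E15 (0.198). On leaving out 1 library the value in E17 against E15 ranged from 0.25 (without E15 replicate 3) to 0.57 (without E15 replicate 5), with no call. The same 3 teeth were the lowest of their stage in the summed counts of 5 bone and osteoclast genes. The sums were 2013 and 1533 in E15 replicates 3 and 4 and 2028 in E17 replicate 1. The other E15 teeth had 3351 to 4778 and the other E17 teeth 4169 to 5727. Most of the mean sum was 1 gene, Alpl (2597 of 3045 at E15 and 3129 of 4300 at E17). These 3 teeth were also the lowest of their stage in summed mesenchymal markers, with 95781, 111564 and 173121. Most of that sum was Col1a1, and without Col1a1 E15 replicate 4 was the highest of its stage (49411). The part of these tissues in the spread of Fgfr3 was not tested, and no marker of cartilage had a row.

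The left and right tooth of the shared E17 embryo differed in Fgfr3 by 0.69 on the log2 scale (right minus left), which is the whole range of the 5 E17 teeth (0.69). For Fgfr2 the difference was 0.25, within a range of 0.30. For the other 6 genes it lay between -0.07 (Dusp6) and 0.10 (Etv5 and Fgfr1).

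Within a tooth, library scale cancels in the ratio of a pair of genes. The log2 ratio of Fgfr1 to Fgfr2 was 0.10 ± 0.19 at E15, 0.03 ± 0.10 at E17 and -0.06 ± 0.18 at E18, and the teeth of all stages overlapped. The log2 ratio of Fgfr3 to Fgfr2 was -3.37 ± 0.54, -3.14 ± 0.20 and -3.10 ± 0.24, again with overlap. These ratios are a description and were not tested. As gene length does not cancel, they do not say which receptor had more molecules.

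Spry2 and Spry4 encode Sprouty proteins, which in the mouse keep extra teeth from forming by holding back FGF signals between epithelium and mesenchyme. Normalized counts of Spry2 were 438, 364, 428, 371 and 364 in the E15 teeth, 544, 540, 561, 589 and 475 at E17, and 573, 679, 585, 570 and 750 at E18. Every tooth of E17 and E18 was above every tooth of E15. The mean was 393 ± 36.7 at E15, 542 ± 42.0 at E17 and 631 ± 80.1 at E18. Spry2 rose by 0.47 ± 0.09 on the log2 scale in E17 against E15 (edgeR adjusted p = 0.00191) and by 0.69 ± 0.11 in E18 against E15 (0.00104). From E17 to E18 the fitted difference was 0.22 ± 0.10, with overlapping teeth and an edgeR adjusted p of 0.314.

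Normalized counts of Spry4 were 614, 545, 478, 659 and 642 in the E15 teeth, 847, 876, 745, 810 and 741 at E17, and 886, 949, 928, 854 and 973 at E18. As for Spry2, the E15 teeth stayed below all others. The means were 588 ± 75.1, 804 ± 60.0 and 918 ± 48.2. It rose by 0.46 ± 0.09 on the log2 scale in E17 against E15 (edgeR adjusted p = 0.00318) and by 0.65 ± 0.10 in E18 against E15 (0.000896). The E18 against E17 difference of 0.19 ± 0.07 did not pass (0.235). The log2 ratio of Spry4 to Spry2 within a tooth was 0.58 ± 0.28, 0.57 ± 0.13 and 0.55 ± 0.12 at the 3 stages, and the stages overlapped.

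Etv4 had the largest fold change of the 8 genes in each comparison. It had 113, 119, 130, 189 and 107 normalized counts at E15. At E17 it had 661, 689, 631, 734 and 592, and at E18 664, 945, 1035, 1137 and 1003. The lowest E17 tooth thus held 592 against 189 in the highest E15 tooth. E18 replicate 1 (664) lay inside the E17 range, and the other 4 teeth of E18 lay above it. The means were 132 ± 33.4, 662 ± 54.2 and 957 ± 178. Etv4 rose by 2.34 ± 0.14 on the log2 scale in E17 against E15 (edgeR adjusted p = 3.21e-07), a value above that of 99.5% of the genes tested. It rose by 2.87 ± 0.19 in E18 against E15 (5.27e-06). In E18 against E17 the difference was 0.53 ± 0.13, with an unadjusted p of 0.00198 and an edgeR adjusted p of 0.0629. Etv4 passed there without E18 replicate 1 (0.64, adjusted p = 0.00481), without E18 replicate 3 (0.49, adjusted p = 0.0382) and in DESeq2 (0.52, adjusted p = 0.0150), so that call rested on the libraries and the tool used.

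Etv5, the close relative of Etv4, stood at 474, 421, 458, 602 and 482 normalized counts in the E15 teeth, 952, 1023, 952, 1180 and 864 at E17, and 938, 1081, 1241, 1087 and 1139 at E18. The E15 teeth were all lower than the rest, and the teeth of E17 and E18 were intermixed. The means were 488 ± 68.3, 994 ± 118 and 1097 ± 110. Etv5 rose by 1.04 ± 0.10 on the log2 scale in E17 against E15 (edgeR adjusted p = 2.19e-05) and by 1.18 ± 0.11 in E18 against E15 (4.18e-05). The difference between E17 and E18 was 0.14 with an adjusted p of 0.530.

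The balance of Etv4 and Etv5 within a tooth differed between stages. The linear ratio of Etv4 to Etv5 normalized counts was 0.268 at E15, 0.668 at E17 and 0.862 at E18 (geometric means). It ranged from 0.224 to 0.316 over the E15 teeth, from 0.622 to 0.695 over the E17 teeth and from 0.709 to 1.05 over the E18 teeth, so no stages overlapped. On the log2 scale the ratio was -1.90 ± 0.20, -0.58 ± 0.06 and -0.21 ± 0.20. The highest E17 and the lowest E18 tooth lay close together (-0.53 and -0.50), and the ratio was not tested. Reads that match both paralogs could have been split between them by the counting.

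**Figure D2:**
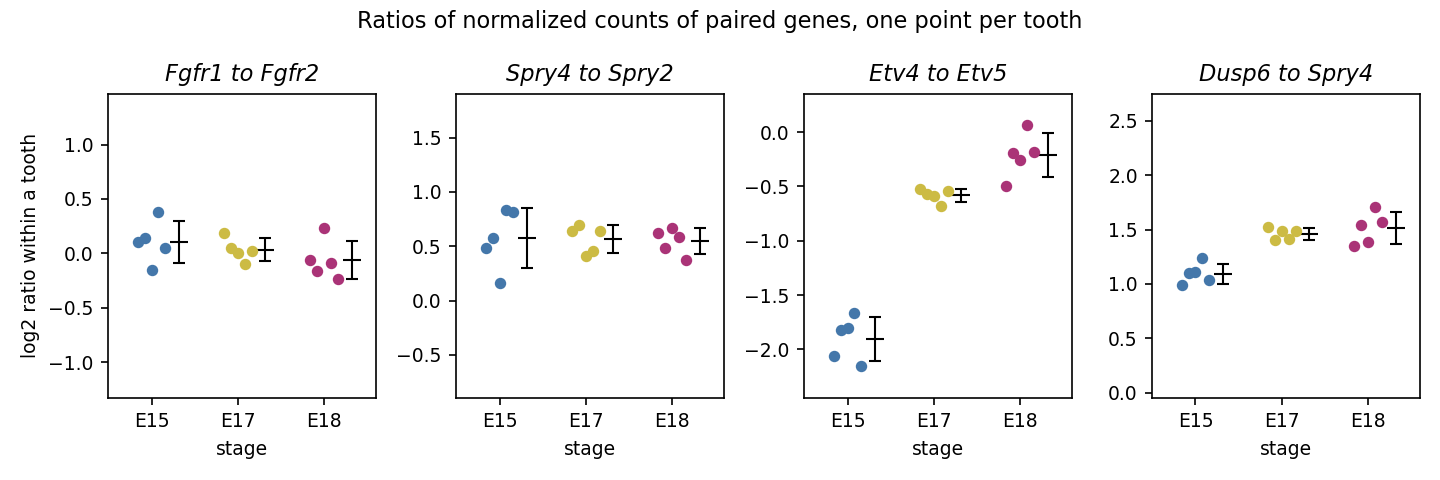
Log2 ratio of normalized counts of paired genes within a tooth (y axis, a span of 2.8 in each panel) by stage (x axis), with points for single teeth and black bars for the mean ± SD (n = 5). Etv4 to Etv5 lies at means of -1.90, -0.58 and -0.21 with no overlap of stages, Dusp6 to Spry4 is lower at E15 than later, and the ratios of Fgfr1 to Fgfr2 and Spry4 to Spry2 overlap.

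Dusp6 had 1222, 1169, 1031, 1557 and 1318 normalized counts in the E15 teeth, 2441, 2318, 2091, 2153 and 2077 at E17, and 2262, 2774, 2421, 2798 and 2884 at E18. The E15 teeth were again lowest, and 3 of the E18 teeth lay above all E17 teeth. The means were 1259 ± 196, 2216 ± 158 and 2628 ± 271. Dusp6 rose by 0.82 ± 0.09 on the log2 scale in E17 against E15 (edgeR adjusted p = 6.53e-05) and by 1.07 ± 0.12 in E18 against E15 (0.000102). In E18 against E17 the difference was 0.25 ± 0.09 (0.194). The log2 ratio of Dusp6 to Spry4 was 1.09 ± 0.09 at E15, 1.46 ± 0.05 at E17 and 1.51 ± 0.15 at E18. All E15 teeth lay below all E17 and all E18 teeth in this ratio, while E17 and E18 overlapped.

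**Figure D3:**
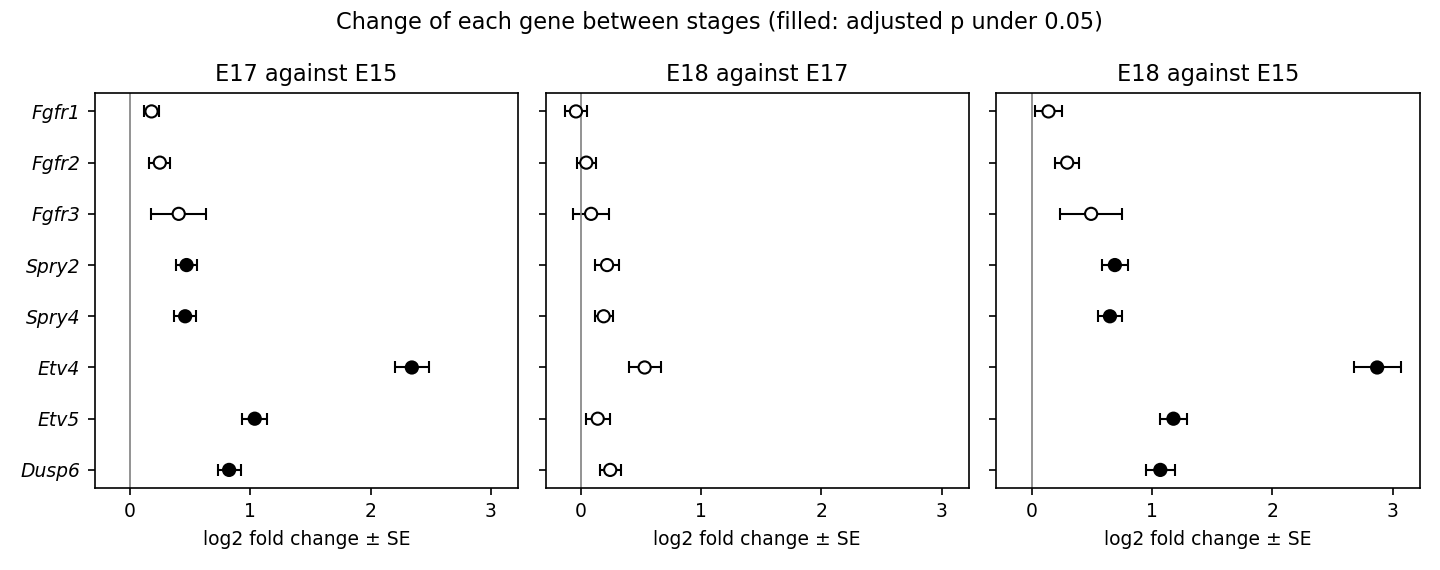
Fitted log2 fold change (x axis) of each gene (y axis) in the 3 comparisons of stages, with bars for the SE and filled points where the edgeR adjusted p was under 0.05. Spry2, Spry4, Etv4, Etv5 and Dusp6 are filled in E17 against E15 and in E18 against E15, no gene is filled in E18 against E17, and the receptors stay unfilled in every panel.

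The median coefficient of variation of the 8 genes was 13.4% at E15, 7.94% at E17 and 11.5% at E18, beside 13.5%, 9.75% and 18.7% over all genes whose mean reached 10 normalized counts. E15 replicate 4 held the highest E15 value of Etv4, Etv5, Dusp6 and Spry4 and the lowest of Fgfr2. That tooth had the lowest summed epithelial markers of its stage (3236) and the next to highest summed enamel knot markers (750), whose part in these values was not tested. In E15 replicates 1 and 5 the enamel knot sums were 792 and 746, and the Etv4 values were 113 and 107. Shh (mean of 16.4) and Fgf4 (2.28) were only a small part of this sum at E15.

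Whole germs hold epithelium and mesenchyme, and the levels of a whole tooth cannot separate more cells of a kind from more RNA per cell. Of 11 epithelial markers, 7 had a row (Trp63, Edar, Cdh3, Perp, Lama3, Sp6 and Foxi3). All 7 were higher in E17 against E15 and in E18 against E15 by the same test, and 4 of 7 in E18 against E17. Their summed normalized counts ranged from 3236 to 4945 at E15, from 7498 to 8777 at E17 and from 10056 to 13273 at E18. The mean sum was 1.99-fold higher at E17 than at E15 and 1.38-fold higher at E18 than at E17. Its genes did not share 1 fold change. From E15 to E17 the relative rise of the mean was smallest for Trp63 (1439 to 2039) and largest for Sp6 (29.8 to 543). The 8 enamel knot markers summed to means of 686, 1537 and 2521, with 3 of 7 tested genes higher in E17 against E15, 1 of 8 in E18 against E17 and 5 of 8 in E18 against E15. Shh added most to the rise of this sum (means of 16.4, 418 and 1067). Fgf9 (125, 88.3 and 109) and Dkk4 (115, 145 and 110) had lower means at E18 than at E15, and the other listed genes had higher ones. The part of the epithelium and of the enamel knot in the rise of the response genes was not tested.

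Of 11 mesenchymal markers, 9 had a row, and 3 were higher and 4 lower in E17 against E15, 0 and 0 in E18 against E17, and 2 and 3 in E18 against E15. Their summed counts ranged from 95781 to 178304 at E15, from 173121 to 306377 at E17 and from 230399 to 307909 at E18. Most of that sum was Col1a1, which encodes a chain of type I collagen. Without it the mean sums were 47810 at E15, 47577 at E17 and 39340 at E18. No marker of muscle, cartilage, endothelium, glia or blood was among the genes that could be joined to a symbol.

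The immediate early genes Fos, Egr1 and Jun, which respond to ERK signals and to handling of tissue within minutes, moved otherwise. They were the 3 of 7 listed genes with a row. Their summed normalized counts ranged from 1372 to 2102 at E15, from 1547 to 1910 at E17 and from 2148 to 6819 at E18. None of the 3 passed in E17 against E15, where the response genes rose, and all 3 were higher in E18 against E17 and in E18 against E15. Over the E18 teeth Fos ranged from 105 to 1208 normalized counts. E18 replicate 2 had the lowest Fos (105) and sum (2148) of its stage. Among the 8 genes it held the lowest E18 value of Fgfr3 (802), the next to lowest of Fgfr1 (7149), Fgfr2 (7976), Etv4 (945) and Etv5 (1081), the middle value of Dusp6 (2774), and the next to highest of Spry2 (679) and Spry4 (949). The part of handling in any change to E18 was not tested.

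**Figure D4:**
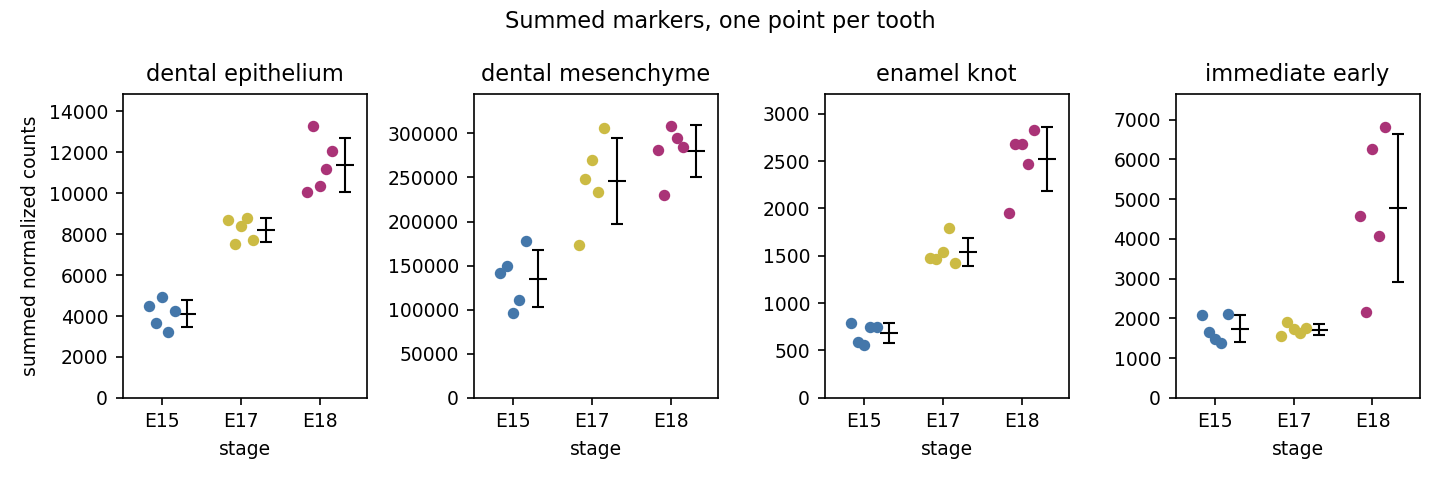
Summed normalized counts (y axis, linear from 0, own scale per panel) of epithelial (7 genes), mesenchymal (9), enamel knot (8) and immediate early (3) markers by stage (x axis). Points are single teeth and black bars the mean ± SD (n = 5). Epithelial and enamel knot sums step up at each stage without overlap, whereas the immediate early sum is alike at E15 and E17 and spreads from 2148 to 6819 at E18.

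The other genes of the FGF pathway list of the study, which also holds EGF and PDGF genes, served as a wider view. Of 61 genes, 57 had a row, and Egf, Fgf6, Pik3ca and Stat4 had none. In E17 against E15, 16 of 54 tested genes passed, or 29.6%, beside 18.3% of all genes. Of these 16, 12 were higher and 4 lower, and the median log2 fold change of the 54 was 0.07. In E18 against E15, 14 of 55 passed, or 25.5%, beside 21.0% of all genes, with 12 higher and 2 lower and a median of 0.20. In E18 against E17, 0 of 55 passed in edgeR, beside 2.54% of all genes. There, 7 had an unadjusted edgeR p under 0.05, and DESeq2 called 2 of 57, beside 4.76% of all genes.

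Among the ligands, 5 were higher and 1 lower of 12 tested in E17 against E15, beside 18.3% of all genes called. Fgf3, a mesenchymal ligand of the cap stage that also comes from the enamel knot, was at 1.53 ± 2.13 normalized counts in E15, 99.3 ± 33.2 at E17 and 112 ± 23.0 at E18. Its edgeR adjusted p was 1.63e-05 in E17 against E15 and 4.08e-05 in E18 against E15. At so few E15 counts the size of its fold change depends on the prior count, and none is given. Fgf12, an intracellular member of the family that is not secreted, was lower by 0.40 ± 0.10 on the log2 scale in E17 against E15 (399 ± 49.5 to 300 ± 27.6, edgeR adjusted p = 0.0170).

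The other 3 receptor genes of the list were Egfr, Pdgfra and Fgfr4, and 1 was higher, 1 lower and 1 did not pass in both comparisons with E15. Egfr, the EGF receptor, rose by 0.32 ± 0.07 in E17 against E15 (edgeR adjusted p = 0.00868) and by 0.40 ± 0.09 in E18 against E15 (0.00829). Pdgfra, the PDGF receptor of mesenchyme, was also on the list of mesenchymal markers. It fell from 11323 ± 1194 normalized counts at E15 to 9351 ± 1001 at E17 and 7501 ± 662 at E18 (edgeR adjusted p = 0.0452 and 0.00167 against E15). Fgfr4, the remaining FGF receptor gene, was named after its values had been seen. It was at 17.8 ± 18.1 normalized counts at E15, 29.9 ± 12.6 at E17 and 55.5 ± 44.8 at E18, and did not pass against E15 at either stage (edgeR adjusted p = 0.363 at E17 and 0.117 at E18).

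The intracellular cofactors were the largest class, with 3 higher and 2 lower of 31 in E17 against E15 and 3 higher and 1 lower of 31 in E18 against E15. These are 16.1% and 12.9% of the class, beside 18.3% and 21.0% of all genes. Their median log2 fold change was 0.0018 and 0.0063. Pik3r2, a regulatory subunit of PI3 kinase, rose by 0.32 ± 0.07 in E17 against E15 (edgeR adjusted p = 0.00591), and Jak2, a cytokine receptor kinase, fell from 1201 ± 64.9 to 955 ± 54.3 normalized counts (0.00243). In E18 against E15, Hras rose by 0.56 ± 0.11 (0.00424) and Sos2, an exchange factor that loads Ras with GTP, fell from 1418 ± 70.4 to 1078 ± 190 normalized counts (0.0419). Of 8 transcription factors, 3 passed in E17 against E15 and 5 in E18 against E15, all higher. Stat6, which acts downstream of interleukin receptors, rose by 0.49 ± 0.07 in E17 against E15 (0.000389) and by 0.83 ± 0.17 in E18 against E15 (0.00526).

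**Figure D5:**
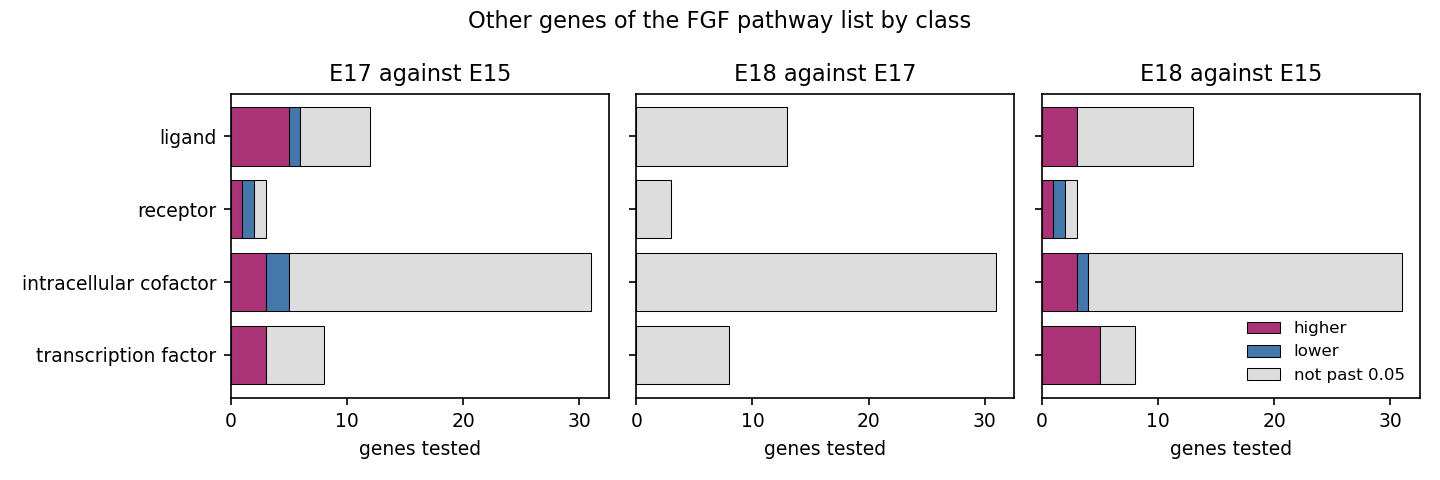
Number of other FGF pathway genes tested (x axis) by class (y axis) in each comparison of stages, split into genes that were higher, lower or not past an edgeR adjusted p of 0.05. Ligands and transcription factors hold 8 of the 12 genes higher in E17 against E15, and no gene is coloured in E18 against E17.

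The genes whose pattern over the 15 libraries was most like each of the 8 were sought among 345 genes with a symbol, by the root mean square difference of log2 values centred on each gene's mean. Fgfr1 was closest to Ctnnb1, which encodes beta-catenin (0.07), and Fgfr2 was close to Dst, which encodes a linker of the cytoskeleton (0.12). Fgfr3 was closest to the Wnt receptor gene Fzd5 (0.16). Spry2 was closest to Stat3 (0.15), and Spry4 to Lrp4 (0.13). Etv4 was close to Foxi3 (0.29), which encodes an epithelial transcription factor and was also on the list of epithelial markers. Etv5 was closest to Lfng (0.17), which modifies Notch receptors, and Dusp6 to Hhip (0.16), a Hedgehog inhibitor and target gene, which was also the next after Lfng for Etv5 (0.20). The root mean square of a gene's own centred values was 0.14 for Fgfr1, 0.18 for Fgfr2 and 1.27 for Etv4. A small difference therefore says less for a gene that varied little. These values describe libraries that share their stage and preparation.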

How the data were processed

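RNA of 15 single molar germs was sequenced, 5 per stage. The authors filtered reads with FastQC and Trimmomatic and deposited expected counts, which salmon (0.99.0 in the E18 labels) estimates per gene, as whole numbers under mouse Ensembl identifiers. The transcript set and use of strand are not given in the sources used here. Rounding therefore changed nothing. A deposited HTSeq table of raw counts of E15 and E17 was not used, because its rat identifiers could not be joined to symbols here.

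Genes were tested with edgeR (4.0.16, R 4.3.3) by the quasi-likelihood test on TMM-scaled counts after filterByExpr, with only the libraries of both stages in a fit and Benjamini-Hochberg adjustment over all genes. SE is the log2 fold change over the root of F. DESeq2 (1.42.0) gave the size factors, as well as an alternative test, and pandas (2.3.3) the summaries. The fits were tested on simulated counts. A true log2 fold change of 1 in size was recovered for 82.8% of changed genes in E17 against E15. It was recovered for 69.4% in E18 against E17 and 67.3% in E18 against E15, and smaller changes were not simulated. Totals of 10993502 to 27571541 mean that 3 counts, the limit that a count of 0 allows, are at most 0.273 CPM. That covers counting error only, as reads that carry no molecular identifier may be copies of 1 molecule. Apart from the shared E17 embryo, the labels number separate embryos.

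The genes and lists were chosen with earlier results of these data known. Named besides them were, for each class of the pathway list and each comparison, the largest rise and fall among genes past 0.05 whose mean reached 10 normalized counts at either stage, and the nearest genes by pattern. Some genes of the marker list and of the pattern search are not reported here, and the epithelial sums leave them out.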

Additional observations from a re-analysis of the deposited data

Results flagged for a closer look

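Of 42 sets of 5 values of a gene or ratio at a stage, 3 held a tooth far from the others by Dixon's test, where chance alone would single out about 2.1. Etv4 in E15 replicate 4 was 189 normalized counts, with 107 to 130 in the other E15 teeth. Fgfr2 in E17 replicate 1 was 6623, with 7864 to 8161 in the other E17 teeth. Fgfr1 in E18 replicate 3 was 9485, with 6965 to 7633 in the other E18 teeth.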

How the results depend on the processing

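Spry2, Spry4, Etv4, Etv5 and Dusp6 passed in all 17 alternative fits of E17 against E15 and all 16 of E18 against E15, and the number of the 8 genes called was 5 to 7 and 5 to 6. In E18 against E17 it was 1 (Etv4) in DESeq2 and 0 to 1 when 1 library was left out, with 1 without E18 replicate 1 or E18 replicate 3. On leaving out 1 library, the fitted difference there ranged for Fgfr2 from -0.0055 (without E17 replicate 1) to 0.077, and for Fgfr3 from -0.029 (without E18 replicate 3) to 0.17, with no call. Fgfr1 passed in E17 against E15 without E15 replicate 5 (0.22, adjusted p = 0.0399, range over alternatives 0.0399 to 0.275). Fgfr2 passed in E17 against E15 in DESeq2 and without E15 replicate 3, E15 replicate 5 or E17 replicate 1 (adjusted p from 0.0320 to 0.138 over alternatives). Other pathway genes called in E17 against E15 fell to 9 with all 15 libraries in 1 fit, where 1514 of all genes were called, 1160 higher and 354 lower, against 1429 and 886. In E18 against E17 they numbered 2 in DESeq2 and 0 to 3 on leaving out 1 library. In E18 against E15 they numbered 23 with all 15 libraries in 1 fit and 11 to 23 on leaving out 1 library, the highest value in both comparisons being without E18 replicate 3. Of all genes, 665 were called in E18 against E17 by DESeq2, 212 with both teeth of the shared embryo joined, and 141 to 713 on leaving out 1 library, with 713 without E18 replicate 3. The cause was not tested. All 42 levels and ratios moved by less than 1 SD in their 294 alternatives. Most of these left out 1 of 5 libraries, which cannot move a mean by 1 SD, and library scale cancels in the ratios. That limit was therefore a weak check. A repeat of the test on the HTSeq table was not run, since its identifiers could not be joined. No paired analysis was possible because the labels give no replicate numbers that join teeth of different stages. A change of stage cannot be told apart from a change in preparation, and genes overlapping on the other strand, or sharing reads with a paralog, are uncertain.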
